A study of Mus musculus with 15 samples.

Results

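The 39 genes described here encode factors that limit, bind or remove R-loops. They were chosen by name: THO and mRNA export genes, RNase H subunits, topoisomerases, helicases, BRCA and Fanconi genes and a few other R-loop proteins. All 39 symbols were among the 23845 genes of the deposited tables, and all 39 were among the 14335 genes that passed the filter on low counts. Transcripts were measured by poly(A) RNA sequencing of the mouse embryonic stem cell line E14, grown on gelatin. Cells received small interfering RNA against 1 of 4 DEAD-box RNA helicases (groups Ddx10KD, Ddx24KD, Ddx27KD and Ddx54KD) or against EGFP, a gene the mouse lacks (EGFPKD, the control). Each of the 5 groups had 3 biological replicates, so 15 libraries entered the comparisons. All groups shared the reagents: 400 ng of siRNA and 4 µL of Lipofectamine, with a change of medium after 16 h and harvest at 48 h. All cells were of 1 line, and no rescue or unrelated second control siRNA was used here. The study's title sets these helicases among proteins that interact with R-loops. For the 39 genes, the comparison is whether their transcripts differed when 1 of the 4 helicases was depleted.

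An R-loop forms when RNA pairs with the template strand of DNA and leaves the other strand single. THO binds nascent RNA and, with export adaptors, packages it away from the DNA. RNase H1 and the RNase H2 complex cut the RNA of a hybrid, helicases unwind it, and topoisomerases relax the negative supercoils behind the polymerase in which hybrids form. BRCA and Fanconi proteins act where hybrids meet replication forks, and the excision nucleases Ercc4 (XPF) and Ercc5 (XPG) can cut the DNA flanking a hybrid. Embryonic stem cells replicate quickly and express most of this machinery.

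Promoter sequence is shown for 6 genes that the edgeR test on group alone called in each of the 4 knockdowns. Of these, 3 were higher and 3 lower. On each side these had the smallest p in the edgeR test over the 5 groups. Aqr, Fanci, Brca2 and Ssrp1 were also called in each knockdown by the test on group alone and are not shown. Each run is the 250 bases before the RefSeq start of the gene on GRCm38, read 5′ to 3′ on the gene's strand. Capitals mark matches to 3 searched motifs on either strand: CCAAT (reverse ATTGG), the E2F motif TTTNNCGC and the CHR motif TTTGAA. The windows are chr1:44147494-44147743 (forward strand) for Ercc5, chr17:23673878-23674127 (reverse strand) for Thoc6 and chr16:16870486-16870735 (forward strand) for Top3b. Those of the lower transcripts are chr11:75348384-75348633 (reverse strand) for Rpa1, chr11:101551956-101552205 (reverse strand) for Brca1 and chr8:84966077-84966326 (reverse strand) for Rnaseh2a.
Ercc5: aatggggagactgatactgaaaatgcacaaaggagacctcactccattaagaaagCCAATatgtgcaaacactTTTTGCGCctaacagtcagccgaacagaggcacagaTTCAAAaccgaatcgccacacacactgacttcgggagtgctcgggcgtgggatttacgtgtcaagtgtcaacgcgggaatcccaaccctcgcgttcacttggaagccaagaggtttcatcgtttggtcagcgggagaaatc
Thoc6: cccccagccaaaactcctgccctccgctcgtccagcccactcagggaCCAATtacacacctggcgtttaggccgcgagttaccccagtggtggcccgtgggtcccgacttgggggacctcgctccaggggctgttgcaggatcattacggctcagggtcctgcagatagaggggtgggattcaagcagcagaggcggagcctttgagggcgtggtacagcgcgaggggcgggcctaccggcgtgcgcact
Top3b: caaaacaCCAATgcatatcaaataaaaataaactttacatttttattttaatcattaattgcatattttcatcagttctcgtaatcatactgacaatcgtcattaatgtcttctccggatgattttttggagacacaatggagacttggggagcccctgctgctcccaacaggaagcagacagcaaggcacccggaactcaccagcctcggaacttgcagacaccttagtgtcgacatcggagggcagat
Rpa1: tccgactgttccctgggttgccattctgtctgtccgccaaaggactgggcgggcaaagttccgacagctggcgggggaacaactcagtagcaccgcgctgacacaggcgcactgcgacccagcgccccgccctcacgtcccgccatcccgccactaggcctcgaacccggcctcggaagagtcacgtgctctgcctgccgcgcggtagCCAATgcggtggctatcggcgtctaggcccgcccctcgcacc
Brca1: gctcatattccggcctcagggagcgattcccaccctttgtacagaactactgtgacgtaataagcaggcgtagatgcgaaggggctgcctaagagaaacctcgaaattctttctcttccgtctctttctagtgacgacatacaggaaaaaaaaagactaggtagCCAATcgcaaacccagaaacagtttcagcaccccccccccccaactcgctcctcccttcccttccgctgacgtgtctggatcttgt
Rnaseh2a: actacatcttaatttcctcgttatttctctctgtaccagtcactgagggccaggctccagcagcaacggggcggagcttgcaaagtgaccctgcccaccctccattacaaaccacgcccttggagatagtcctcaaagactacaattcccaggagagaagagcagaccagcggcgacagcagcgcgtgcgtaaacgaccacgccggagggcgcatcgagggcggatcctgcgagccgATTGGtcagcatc

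Member windows on chromosome 18, where Thoc1 lies, were left out, while that chromosome was kept among the windows of all genes. Of the 39 genes, 32 had promoter windows counted here, 36 windows in all, against 32851 windows of all genes. The Ercc5 window held all 3 of these motifs, and the other 5 windows held CCAAT alone. Of the others called in each knockdown by the group-only test, Aqr had CCAAT and CHR, Ssrp1 E2F and CHR, and Brca2 E2F. Fanci was not among the genes with a match. CCAAT stood in 41.7% of the members' windows and in 33.9% of all windows. The E2F motif stood in 19.4% of the members' windows (Bard1, Brca2, Ercc5, Srsf1, Ssrp1, Supt16 and Thoc2) and in 4.28% of all windows. The CHR motif stood in 19.4% and 16.0%, and the NRF1 motif in 8.33% and 3.74%. A p53 half-site stood in 2.78% of the members' windows, in Fanca, and in 7.13% of all windows. No searched motif is a part of another, and a match says only that these letters stand in the window.

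The libraries held 26836946 to 27708782 expected counts. The targeted transcripts fell to 18.5% ± 4.25 of the EGFPKD level for Ddx10 in its knockdown, Ddx24 to 30.8% ± 4.89, Ddx27 to 22.7% ± 0.818 and Ddx54 to 28.0% ± 4.68 (SD, n = 3). Levels are CPM, expected counts per library total scaled by TMM factors, unless TPM is named. Pluripotency markers were high in every group, with 9 markers summing to 5169 to 5792 CPM in knockdown libraries and 5718 to 5898 CPM in EGFPKD. Of 10 fibroblast markers, 4 passed the filter, and the 10 summed to 17.2 to 21.6 CPM in knockdown libraries, against 22.1 to 28.1 CPM in EGFPKD. The largest part was Thy1, with means of 10.3, 10.3, 10.1 and 12.2 CPM in Ddx10KD, Ddx24KD, Ddx27KD and Ddx54KD and 17.0 CPM in EGFPKD. Fbn1 was higher in each knockdown, and the median log2 change of the 4 was -0.08, 0.10, 0.30 and 0.12. Postn, Lum, Dcn, Col3a1 and Twist2 lay between 0 and 0.109 CPM in every library. In such bulk libraries, fewer cells with a transcript and less of it per cell cannot be told apart.

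Against EGFPKD, most R-loop factor transcripts changed little, and some were called on both sides. In the test on group alone, Ercc5, Thoc6, Top3b, Aqr and Fanci were called higher in each knockdown. Rpa1, Brca1, Brca2, Rnaseh2a and Ssrp1 were called lower in each. A fit with replicate number as a block, given below, added Xrn2 as higher in each. It added Thoc7, Pif1, Parp1 and Adar as lower in each. The share of all tested genes called in every knockdown was not counted. A gene is called at an adjusted p under 0.05, from the edgeR quasi-likelihood test with Benjamini-Hochberg adjustment over all tested genes. In Ddx10KD, 16 of the 39 members were called, 6 higher and 10 lower, where 31% of all tested genes were called (16.5% higher and 14.5% lower). Ddx24KD had 13 called members, 6 higher and 7 lower, beside 28.1% of all genes (15% higher and 13.1% lower). In Ddx27KD the count was 15, with 6 higher and 9 lower, beside 33.4% of all genes (17.3% and 16.1%). Ddx54KD had 13, again 6 higher and 7 lower, beside 24.3% of all genes (13.1% and 11.2%). The median log2 change of the 39 members was -0.0194, -0.0256, -0.0329 and -0.0459 in Ddx10KD, Ddx24KD, Ddx27KD and Ddx54KD, where that of all tested genes was 0.00736, 0.00310, 0.00593 and 0.00813. The median size of the change, without its sign, was 0.13, 0.11, 0.12 and 0.13 for the members and 0.19, 0.18, 0.20 and 0.17 for all genes. In the same comparisons 16 of 16 p53 targets rose and 19 to 23 of 32 S-phase genes fell, and their part in the members' changes was not tested.

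The 4 comparisons share the 3 EGFPKD libraries, so their values are set side by side and are not independent of each other. The 3 knockdown values and the 3 EGFPKD values did not overlap in 20 members in Ddx10KD, 21 in Ddx24KD, 23 in Ddx27KD and 24 in Ddx54KD, while 46.2%, 40.7%, 46.7% and 40.2% of all tested genes did not. Separation of all 12 knockdown libraries from the 3 EGFPKD libraries, given below for single genes, was not counted over all genes. How common it is among them is therefore not known. Libraries with the same replicate number deviated together, so the fit was repeated with that number as a block. With the block 23 members were called in Ddx10KD beside 44% of all tested genes, 21 in Ddx24KD beside 41.2%, 21 in Ddx27KD beside 45.8% and 21 in Ddx54KD beside 38.9%. The 7 lower members of Ddx24KD were 3 without Ddx24KD replicate 1, and 4 without Ddx24KD replicate 3 or EGFPKD replicate 2. In Ddx54KD the count was 8, with 3 lower, without Ddx54KD replicate 3 or EGFPKD replicate 1. In a single test over all 5 groups, 18 members were called, beside 29% of all genes. The block called 26, beside 49.5%. The unblocked count was 9, 8 and 8 without EGFPKD replicate 1, 2 and 3. In the authors' deposited table for Ddx24KD, 6 members had a posterior probability of differential expression of at least 0.95, 2 of them lower, as had 12.4% of the genes in that table. Calls that fell short of 0.95 in the authors' deposited tables are given beside their genes. Fits without 1 library ignore the pairing, and each call lost in such a fit is given beside its gene. The share of all genes called in such fits was not counted.

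**Figure D1:**
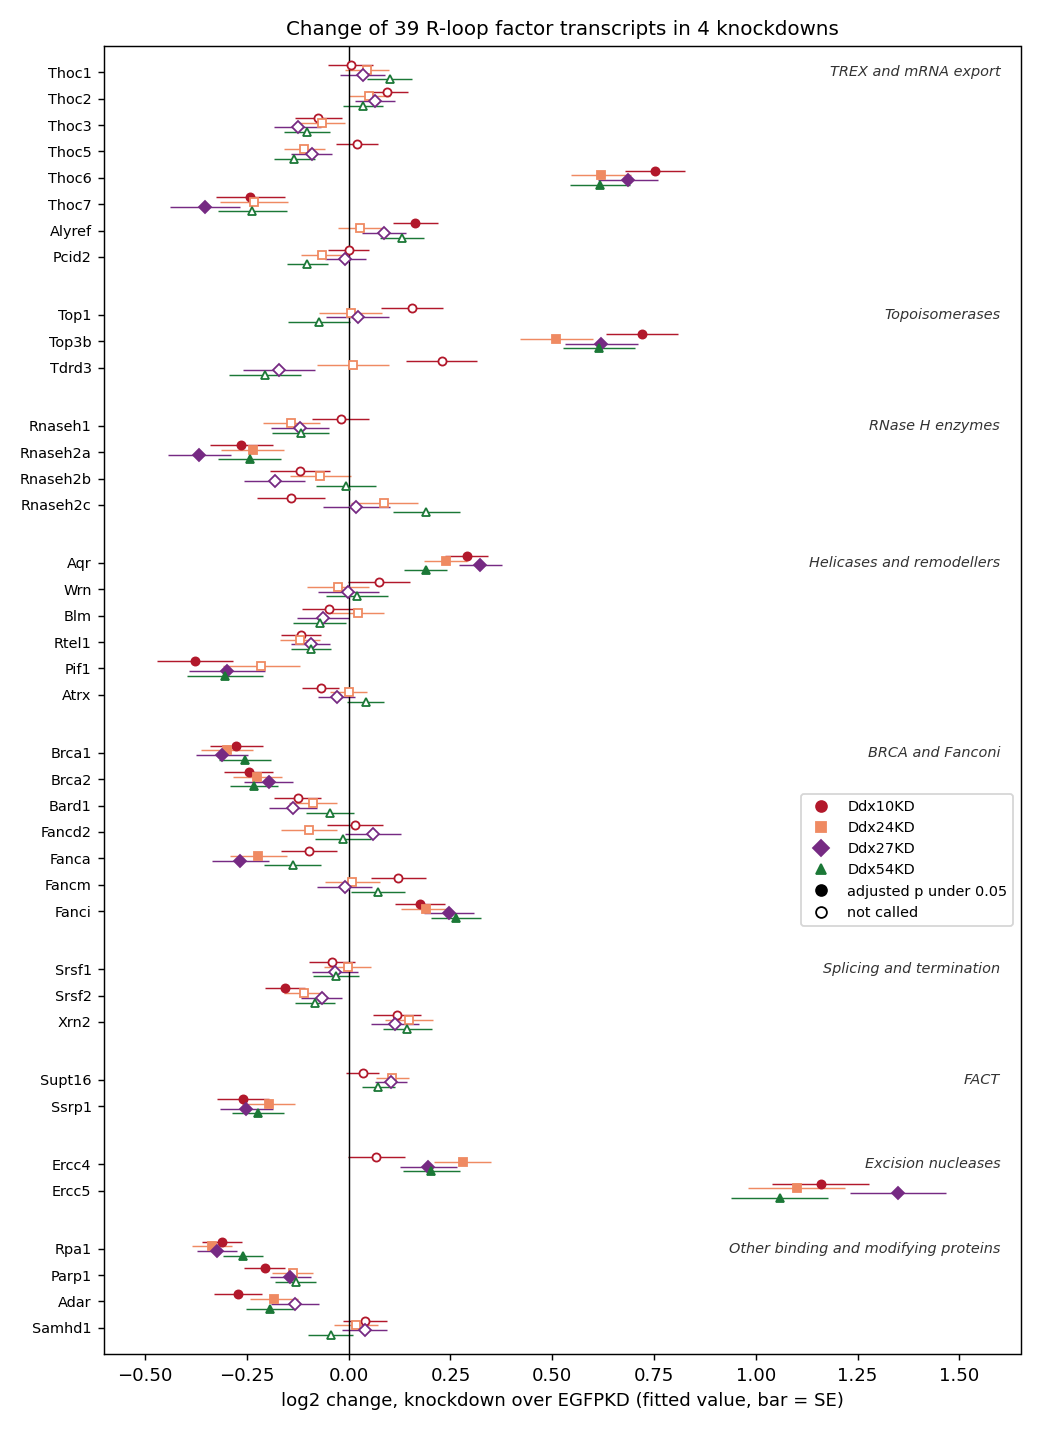
Fitted log2 change (horizontal axis, knockdown over EGFPKD) of each of the 39 genes, grouped by role, with 1 marker per knockdown and bars of 1 SE. Filled markers are called at an adjusted p under 0.05. Ercc5 lies between 1.06 and 1.35, Thoc6 and Top3b between 0.51 and 0.75, and the other genes lie within 0.38 of 0.

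The excision nucleases held the largest change of the set. Ercc5 encodes XPG, the nuclease that cuts on the 3′ side of a DNA lesion in nucleotide excision repair (ENSMUSG00000026048.16, chromosome 1, 44147744 to 44181260, forward strand, GENCODE M21 on mm10). Ercc5 had 49.9, 55.1 and 63.8 CPM in Ddx10KD libraries, 51.4, 47.1 and 63.5 CPM in Ddx24KD, 58.8, 68.5 and 65.2 CPM in Ddx27KD and 46.0, 52.97 and 58.4 CPM in Ddx54KD, against 22.8, 25.8 and 26.9 CPM in EGFPKD libraries. All 12 knockdown libraries lay above the 3 EGFPKD libraries. The log2 change was 1.16 ± 0.12 in Ddx10KD (adjusted p 3.70e-06), 1.10 ± 0.12 in Ddx24KD (adjusted p 7.02e-06), 1.35 ± 0.12 in Ddx27KD (adjusted p 5.87e-07) and 1.06 ± 0.12 in Ddx54KD (adjusted p 1.24e-05), which is 2.23, 2.14, 2.55 and 2.08 times the EGFPKD level. Over the 5 groups its adjusted p was 7.50e-06. Ercc4 encodes XPF, the nuclease of the 5′ side, and its changes were smaller: 0.07 ± 0.07 in Ddx10KD (adjusted p 0.502), 0.28 ± 0.07 in Ddx24KD (adjusted p 0.00688), 0.20 ± 0.07 in Ddx27KD (adjusted p 0.0399) and 0.20 ± 0.07 in Ddx54KD (adjusted p 0.0431). It was called in Ddx24KD, Ddx27KD and Ddx54KD and not in Ddx10KD. The Ddx27KD call was lost without Ddx27KD replicate 1 or 2 or EGFPKD replicate 1 or 3 (adjusted p 0.0934 to 0.126), and in that comparison also with no count filter (0.0631). The Ddx54KD call was lost without Ddx10KD replicate 1, Ddx24KD replicate 1 or 3, Ddx27KD replicate 1 or 2, Ddx54KD replicate 1 or 3 or EGFPKD replicate 1, 2 or 3 (adjusted p 0.0502 to 0.161), and also with RLE scaling (0.0506), with no count filter (0.0670) and when only the 6 libraries compared were fitted (0.0632). In the authors' deposited tables the probability for Ercc4 was 1.54e-06 in Ddx24KD, 6.36e-11 in Ddx27KD and 0.891 in Ddx54KD, all short of 0.95. With the block, Ercc4 had an adjusted p of 0.0145 in Ddx27KD and 0.0147 in Ddx54KD.

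Among 8 THO and export genes, 1 rose strongly, Thoc7 lay below EGFPKD in every knockdown library, and the others differed little. Thoc6, a subunit of the THO complex (ENSMUSG00000041319.14, chromosome 17, 23668614 to 23673882, reverse strand), was higher in every knockdown library. Thoc6 had 89.6, 95.3 and 88.4 CPM in Ddx10KD libraries, 86.4, 82.3 and 80.7 CPM in Ddx24KD, 94.0, 91.4 and 75.5 CPM in Ddx27KD and 81.2, 88.5 and 79.2 CPM in Ddx54KD, against 51.7, 56.1 and 54.5 CPM in EGFPKD libraries. Its log2 change was 0.75 ± 0.07 in Ddx10KD (adjusted p 2.36e-06), 0.62 ± 0.07 in Ddx24KD (adjusted p 1.63e-05), 0.69 ± 0.07 in Ddx27KD (adjusted p 3.95e-06) and 0.62 ± 0.07 in Ddx54KD (adjusted p 2.02e-05). Thoc7, another THO subunit, had 18.9 ± 1.48, 19.0 ± 1.96, 17.5 ± 1.22 and 19.0 ± 0.752 CPM in Ddx10KD, Ddx24KD, Ddx27KD and Ddx54KD and 22.4 ± 0.890 CPM in EGFPKD (SD, n = 3), with no overlap of the knockdown and EGFPKD libraries. It fell in Ddx10KD (-0.24 ± 0.08, adjusted p 0.0394) and Ddx27KD (-0.35 ± 0.08, adjusted p 0.00431). Its values of -0.23 in Ddx24KD and -0.24 in Ddx54KD had adjusted p of 0.0502 and 0.0516, and 0.00425 and 0.00439 with the block. The Ddx10KD call was lost without Ddx10KD replicate 1 or 3 or EGFPKD replicate 1, 2 or 3 (adjusted p 0.0514 to 0.150), and also with no count filter (0.0521). Alyref, the adaptor that hands mRNA to the export receptor, was called higher in Ddx10KD (0.16 ± 0.05, adjusted p 0.0312). That call was lost without Ddx10KD replicate 2 or 3 or EGFPKD replicate 1 or 2 (adjusted p 0.0983 to 0.121).

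Thoc1, a core THO subunit, had log2 changes of 0.00, 0.05, 0.03 and 0.10 in Ddx10KD, Ddx24KD, Ddx27KD and Ddx54KD, and the scaffold Thoc2 had 0.10, 0.05, 0.06 and 0.04. Of the further THO subunits, Thoc3 had -0.08, -0.07, -0.12 and -0.10 and Thoc5 had 0.02, -0.11, -0.09 and -0.13. Pcid2, a subunit of the TREX-2 export complex, had 0.00, -0.07, -0.01 and -0.10. None of these 5 was called in any knockdown without the block, at adjusted p of 0.0657 to 0.998. The block added calls for Thoc2 in Ddx10KD (0.0319), Thoc3 in Ddx27KD (0.0109) and Ddx54KD (0.0379), Thoc5 in Ddx24KD (0.0473) and Ddx54KD (0.0184), and Alyref in Ddx54KD (0.0354).

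Top3b rose in each knockdown, and its binding partner Tdrd3 was not called in any. Top3b encodes topoisomerase 3 beta, which acts on RNA as well as DNA (ENSMUSG00000022779.16, chromosome 16, 16870736 to 16892990, forward strand). Top3b had 153, 184 and 176 CPM in Ddx10KD libraries, 138, 141 and 164 CPM in Ddx24KD, 153, 174 and 151 CPM in Ddx27KD and 141, 167 and 168 CPM in Ddx54KD, against 97.3, 110.4 and 103 CPM in EGFPKD libraries. Every knockdown library was above every EGFPKD library. It changed by 0.72 ± 0.09 in Ddx10KD (adjusted p 2.11e-05), 0.51 ± 0.09 in Ddx24KD (adjusted p 0.000514), 0.62 ± 0.09 in Ddx27KD (adjusted p 6.59e-05) and 0.62 ± 0.09 in Ddx54KD (adjusted p 0.000123) on the log2 scale. Tdrd3, the Tudor protein that brings this enzyme to chromatin and mRNA (ENSMUSG00000022019.16, chromosome 14, 87416639 to 87545504, forward strand), was among the least abundant members. Tdrd3 had 14.4, 14.7 and 13.4 CPM in Ddx10KD libraries, 11.9, 12.1 and 12.5 CPM in Ddx24KD, 10.1, 11.8 and 10.3 CPM in Ddx27KD and 11.1, 10.2 and 10.1 CPM in Ddx54KD, against 10.9, 12.6 and 12.8 CPM in EGFPKD libraries. Ddx10KD libraries were all above EGFPKD, and those of the other 3 knockdowns overlapped it. The log2 changes of Tdrd3 were 0.23 ± 0.09 in Ddx10KD (adjusted p 0.0575), 0.01 ± 0.09 in Ddx24KD (adjusted p 0.947), -0.17 ± 0.09 in Ddx27KD (adjusted p 0.153) and -0.21 ± 0.09 in Ddx54KD (adjusted p 0.105), none of them called, and with the block the value in Ddx10KD was called (0.0271). Top1, the topoisomerase that relaxes supercoils ahead of and behind RNA polymerase, had 0.16, 0.01, 0.02 and -0.07 in Ddx10KD, Ddx24KD, Ddx27KD and Ddx54KD. It was not called, and the block added a call in Ddx10KD (0.00229).

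The catalytic subunit of RNase H2 was lower in each knockdown, and the other RNase H genes were not called. Rnaseh2a lies at ENSMUSG00000052926.16, chromosome 8, 84956610 to 84969767, reverse strand. Rnaseh2a had 57.0, 60.4 and 55.6 CPM in Ddx10KD libraries, 53.6, 66.2 and 56.6 CPM in Ddx24KD, 53.2, 56.7 and 51.3 CPM in Ddx27KD and 57.8, 64.1 and 53.6 CPM in Ddx54KD, against 71.4, 69.2 and 67.1 CPM in EGFPKD libraries. The knockdown libraries all lay below the EGFPKD libraries, the nearest being Ddx24KD replicate 2. Its log2 change was -0.26 ± 0.08 in Ddx10KD (adjusted p 0.0165), -0.24 ± 0.08 in Ddx24KD (adjusted p 0.0320), -0.37 ± 0.08 in Ddx27KD (adjusted p 0.00178) and -0.24 ± 0.08 in Ddx54KD (adjusted p 0.0313). The Ddx10KD call was lost without Ddx10KD replicate 3 or EGFPKD replicate 1 (adjusted p 0.0575 to 0.0670). In Ddx24KD it was lost without Ddx24KD replicate 1 or 3 or EGFPKD replicate 1 or 2 (adjusted p 0.0655 to 0.139), and also when only the 6 libraries compared were fitted (0.0586). The Ddx54KD call was lost without Ddx54KD replicate 1 or 3 or EGFPKD replicate 1 or 2 (adjusted p 0.0657 to 0.148). The authors' deposited table gave it a probability of 0.846 in Ddx24KD. Rnaseh2b, a structural subunit, had log2 changes of -0.12, -0.07, -0.18 and -0.01, and the block added a call in Ddx27KD (0.00839). Rnaseh2c, the other structural subunit, had -0.14, 0.09, 0.02 and 0.19, with a call in Ddx54KD under the block (0.0258). It differed over the 5 groups at an adjusted p of 0.0499. Rnaseh1, the single-subunit enzyme, had -0.02, -0.14, -0.12 and -0.12 and was not called.

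Of 6 helicase and remodeller genes, the fit without the block called Aqr higher in each knockdown and Pif1 lower in all but Ddx24KD. It did not call the other 4. Aqr encodes aquarius, an RNA and DNA helicase of the spliceosome that unwinds R-loops (ENSMUSG00000040383.16, chromosome 2, 114101170 to 114187024, reverse strand). Aqr had 397, 382 and 429 CPM in Ddx10KD libraries, 385, 377 and 403 CPM in Ddx24KD, 421, 387 and 428 CPM in Ddx27KD and 388, 363 and 375 CPM in Ddx54KD, against 334, 322 and 332 CPM in EGFPKD libraries. No knockdown library reached down to the EGFPKD range. The log2 change of Aqr was 0.29 ± 0.05 in Ddx10KD (adjusted p 0.000604), 0.24 ± 0.05 in Ddx24KD (adjusted p 0.00303), 0.32 ± 0.05 in Ddx27KD (adjusted p 0.000200) and 0.19 ± 0.05 in Ddx54KD (adjusted p 0.0149). The Ddx54KD call was lost without Ddx54KD replicate 1 or EGFPKD replicate 2 (adjusted p 0.0526 to 0.0655). Pif1, a helicase of telomeres and G-quadruplexes, averaged 25.7 ± 2.66, 28.8 ± 2.39, 27.1 ± 2.83 and 27.1 ± 1.94 CPM in Ddx10KD, Ddx24KD, Ddx27KD and Ddx54KD and 33.4 ± 2.10 CPM in EGFPKD (SD, n = 3). It changed by -0.38 ± 0.09 in Ddx10KD (adjusted p 0.00597), -0.21 ± 0.09 in Ddx24KD (adjusted p 0.1004), -0.30 ± 0.09 in Ddx27KD (adjusted p 0.0212) and -0.30 ± 0.09 in Ddx54KD (adjusted p 0.0268), and the Ddx24KD value was called with the block (0.00786). The Ddx27KD call was lost without Ddx27KD replicate 2 or 3 or EGFPKD replicate 1 (adjusted p 0.0517 to 0.104), and the Ddx54KD call without Ddx54KD replicate 2 or 3 or EGFPKD replicate 1 or 2 (adjusted p 0.0553 to 0.108).

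Rtel1, a helicase that dismantles D-loops and telomere loops, had log2 changes of -0.12, -0.12, -0.09 and -0.09, with every knockdown library below every EGFPKD library. It was not called at adjusted p of 0.0821 to 0.190, and the block added calls in Ddx10KD (0.0280) and Ddx24KD (0.0261). Of the RecQ helicases, Blm had -0.05, 0.02, -0.06 and -0.07 and Wrn had 0.08, -0.03, 0.00 and 0.02. Atrx, the remodeller that deposits histone H3.3 in heterochromatin, had -0.07, 0.00, -0.03 and 0.04. Blm, Wrn and Atrx were called in no knockdown, with or without the block.

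The BRCA genes fell while Fanci rose. Brca1, the ubiquitin ligase subunit that directs recombination and recruits hybrid-removing enzymes (ENSMUSG00000017146.12, chromosome 11, 101488764 to 101551955, reverse strand), was below control in all 12 knockdown libraries. Brca1 had 204, 203 and 219 CPM in Ddx10KD libraries, 199, 202 and 214 CPM in Ddx24KD, 188, 199.7 and 223 CPM in Ddx27KD and 214, 204 and 217 CPM in Ddx54KD, against 241, 242 and 273 CPM in EGFPKD libraries. Its log2 change was -0.28 ± 0.06 in Ddx10KD (adjusted p 0.00388), -0.30 ± 0.06 in Ddx24KD (adjusted p 0.00260), -0.31 ± 0.06 in Ddx27KD (adjusted p 0.00143) and -0.25 ± 0.06 in Ddx54KD (adjusted p 0.00882), and the Ddx54KD call was lost without EGFPKD replicate 3 (adjusted p 0.0532). Brca2, which acts in homologous recombination, was also lower in each knockdown. Brca2 had 143, 134 and 148 CPM in Ddx10KD libraries, 139, 147 and 144 CPM in Ddx24KD, 138, 143 and 159 CPM in Ddx27KD and 149, 134 and 145 CPM in Ddx54KD, against 175, 161 and 168 CPM in EGFPKD libraries. Knockdown and EGFPKD libraries did not overlap. Brca2 changed by -0.24 ± 0.06 in Ddx10KD (adjusted p 0.00541), -0.22 ± 0.06 in Ddx24KD (adjusted p 0.0106), -0.20 ± 0.06 in Ddx27KD (adjusted p 0.0184) and -0.23 ± 0.06 in Ddx54KD (adjusted p 0.0101). Its Ddx27KD call was lost without Ddx27KD replicate 1 or 2 or EGFPKD replicate 1 (adjusted p 0.0620 to 0.0877). The authors' deposited table gave that change a probability of 0.805. Bard1, the obligate partner of Brca1, had -0.13, -0.09, -0.14 and -0.05 in Ddx10KD, Ddx24KD, Ddx27KD and Ddx54KD and was not called. The block added Bard1 in Ddx10KD (0.0426) and Ddx27KD (0.0266).

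Fanci, which with Fancd2 forms the clamp that Fanconi signalling places on DNA, averaged 107 ± 3.97, 108 ± 1.26, 112 ± 7.44 and 114 ± 6.12 CPM in Ddx10KD, Ddx24KD, Ddx27KD and Ddx54KD and 94.8 ± 6.66 CPM in EGFPKD (SD, n = 3). It rose by 0.17 ± 0.06 in Ddx10KD (adjusted p 0.0393), 0.19 ± 0.06 in Ddx24KD (adjusted p 0.0283), 0.25 ± 0.06 in Ddx27KD (adjusted p 0.00527) and 0.26 ± 0.06 in Ddx54KD (adjusted p 0.00503). The Ddx10KD call was lost without Ddx10KD replicate 2 or 3, Ddx24KD replicate 1 or EGFPKD replicate 1 or 2 (adjusted p 0.0536 to 0.199), and also with no count filter (0.0515). In Ddx24KD it was lost without Ddx24KD replicate 1, 2 or 3 or EGFPKD replicate 1 or 2 (adjusted p 0.0519 to 0.151). In the authors' deposited tables Fanci had a probability of 0.684 in Ddx10KD, 0.340 in Ddx24KD and 0.897 in Ddx27KD. Its partner Fancd2 had log2 changes of 0.02, -0.10, 0.06 and -0.01 and was called in no knockdown, with or without the block, although the blocked test over the 5 groups called it (0.0301). Fanca, a subunit of the core ligase, was called lower in Ddx24KD (-0.22 ± 0.07, adjusted p 0.0262) and Ddx27KD (-0.27 ± 0.07, adjusted p 0.00792). Its value of -0.14 in Ddx54KD was called with the block (0.0456). The Ddx24KD call was lost without Ddx24KD replicate 1 or 3 or EGFPKD replicate 2 or 3 (adjusted p 0.0552 to 0.107). In the authors' deposited table Fanca had a probability of 1.20e-09 in Ddx24KD. Fancm, the translocase that remodels stalled forks, had 0.12, 0.01, -0.01 and 0.07, with a call in Ddx10KD under the block (0.0258).

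Splicing and termination genes had small changes, though Xrn2 lay above EGFPKD in every knockdown library. Srsf2, an SR splicing factor and the most abundant member by TPM, was called lower in Ddx10KD alone (-0.16 ± 0.05, adjusted p 0.0235), a call lost without Ddx10KD replicate 1 or 3 or EGFPKD replicate 3 (adjusted p 0.0566 to 0.105). In Ddx24KD, Ddx27KD and Ddx54KD it had -0.11, -0.07 and -0.08, and 0.0341 as adjusted p with the block in Ddx24KD. Srsf1, the SR protein whose loss is known to raise R-loops in vertebrate cells, had -0.04, 0.00, -0.03 and -0.03 and was not called. Xrn2, the exonuclease that ends transcription past the poly(A) site, had 198 to 235 CPM in the 12 knockdown libraries, against 194, 193 and 193 CPM in EGFPKD. Its log2 changes of 0.12, 0.15, 0.11 and 0.14 were not called, and each was called with the block (adjusted p 0.0231, 0.00641, 0.0268 and 0.00766).

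Of the FACT subunits, which together move nucleosomes out of the way of polymerases, Ssrp1 fell and Supt16 was not called. Ssrp1 averaged 346 ± 17.2, 361 ± 34.7, 348 ± 8.60 and 355 ± 22.7 CPM in Ddx10KD, Ddx24KD, Ddx27KD and Ddx54KD and 414 ± 12.3 CPM in EGFPKD (SD, n = 3). It fell in each knockdown, with log2 changes of -0.26 ± 0.06 in Ddx10KD (adjusted p 0.00599), -0.20 ± 0.06 in Ddx24KD (adjusted p 0.0313), -0.25 ± 0.06 in Ddx27KD (adjusted p 0.00655) and -0.22 ± 0.06 in Ddx54KD (adjusted p 0.0187). The Ddx24KD call was lost without Ddx24KD replicate 1 or 3 or EGFPKD replicate 1 or 2 (adjusted p 0.0733 to 0.155), and also when only the 6 libraries compared were fitted (0.0711), and the authors' deposited table gave it a probability of 0.280. In Ddx54KD it was lost without Ddx54KD replicate 3 or EGFPKD replicate 1 (adjusted p 0.0645 to 0.102). Supt16 had log2 changes of 0.03, 0.11, 0.10 and 0.07, none called, and the block added calls in Ddx24KD (0.00922) and Ddx27KD (0.00964), both higher.

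Rpa1, the large subunit of the protein that coats single-stranded DNA, was the lower gene with the smallest p over the 5 groups (adjusted p 0.000247, ENSMUSG00000000751.13, chromosome 11, 75298166 to 75348324, reverse strand). Rpa1 had 425, 428 and 438 CPM in Ddx10KD libraries, 414, 418 and 438 CPM in Ddx24KD, 410.4, 430.1 and 440.1 CPM in Ddx27KD and 437, 456 and 446 CPM in Ddx54KD, against 497, 539 and 566 CPM in EGFPKD libraries. The 12 knockdown libraries lay between 410.4 and 456 CPM, all below EGFPKD. Its log2 change was -0.31 ± 0.05 in Ddx10KD (adjusted p 0.000184), -0.34 ± 0.05 in Ddx24KD (adjusted p 0.000111), -0.32 ± 0.05 in Ddx27KD (adjusted p 0.000113) and -0.26 ± 0.05 in Ddx54KD (adjusted p 0.00121). The authors' deposited table gave Rpa1 in Ddx24KD a probability of 0.891. Parp1, which marks DNA breaks with ADP-ribose, was called lower in Ddx10KD (-0.21 ± 0.05, adjusted p 0.00544) and Ddx27KD (-0.14 ± 0.05, adjusted p 0.0390). The Ddx27KD call was lost without Ddx27KD replicate 1 or 2 or EGFPKD replicate 2 or 3 (adjusted p 0.0733 to 0.123), and also with a filter of at least 10 CPM in 3 libraries (0.0529). The block added Parp1 in Ddx24KD (0.00339) and Ddx54KD (0.00603), at -0.14 and -0.13. Adar had 68.2, 59.6 and 68.6 CPM in Ddx10KD libraries, 69.3, 68.0 and 71.4 CPM in Ddx24KD, 74.6, 68.9 and 72.8 CPM in Ddx27KD and 73.1, 67.4 and 67.0 CPM in Ddx54KD, against 78.6, 78.0 and 80.4 CPM in EGFPKD libraries. Adar, the adenosine deaminase that edits double-stranded RNA, had every knockdown library below every EGFPKD library. Its log2 change was -0.27 ± 0.06 in Ddx10KD (adjusted p 0.00239), -0.18 ± 0.06 in Ddx24KD (adjusted p 0.0278), -0.13 ± 0.06 in Ddx27KD (adjusted p 0.0969) and -0.19 ± 0.06 in Ddx54KD (adjusted p 0.0251), and the block also called it in Ddx27KD (0.0217). The Ddx24KD call was lost without Ddx24KD replicate 1 or 2 or EGFPKD replicate 1 or 3 (adjusted p 0.0606 to 0.0856), and the Ddx54KD call without Ddx54KD replicate 2 or 3 or EGFPKD replicate 1 or 3 (adjusted p 0.0586 to 0.0977). In the authors' deposited table the probability for Adar in Ddx24KD was 0.00379. Samhd1, a dNTP hydrolase that also acts at stalled forks, had 0.04, 0.02, 0.04 and -0.04 and was not called.

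**Figure D2:**
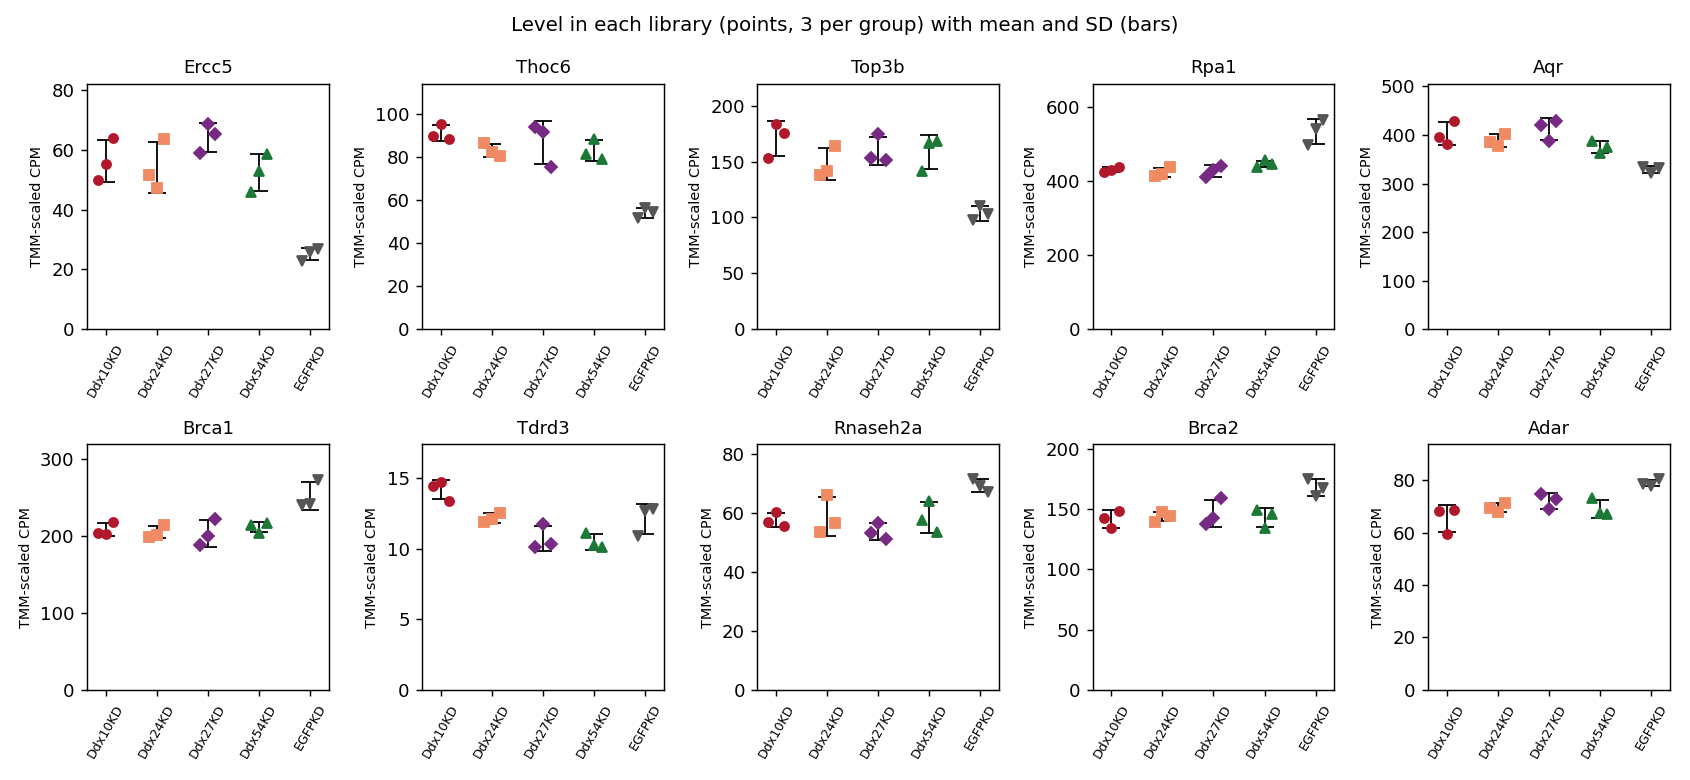
TMM-scaled CPM (vertical axes, from 0) of the 10 members with the smallest p over the 5 groups, 1 panel per gene. Points are the 3 libraries of each group and bars show the SD around the mean. In Ercc5, Thoc6, Top3b and Aqr all knockdown points lie above EGFPKD, in Rpa1, Brca1, Rnaseh2a, Brca2 and Adar all lie below it, and in Tdrd3 the Ddx10KD points alone lie above it.

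Several members work as partners in 1 complex, and the log2 ratio of partner transcripts within a library was set out for 10 pairs. The ratios are of CPM, which is not scaled for transcript length, so their level does not give the relative abundance of partners. In EGFPKD, Ssrp1 averaged 298 TPM and Supt16 245 TPM. What can be read is the difference of a ratio between knockdown and EGFPKD libraries. The pairs were chosen after the values of their members had been seen, so no test is given. Brca1 over Bard1 was 1.75 to 1.95 in the 12 knockdown libraries, against 2.05 to 2.06 in the 3 EGFPKD libraries. Ssrp1 over Supt16 was -0.79 to -0.61 in knockdown libraries, against -0.44 to -0.38 in EGFPKD. Neither pair overlapped between the sides. Thoc6 over Thoc3 was -0.27 to -0.02 in knockdown libraries, against -0.97 to -0.83 in EGFPKD, and Top3b over Tdrd3 was 3.41 to 4.06, against 3.02 to 3.16 in EGFPKD. Fanci over Fancd2 was 0.04 to 0.34 in knockdown libraries, against -0.05 to 0.04 in EGFPKD, where the nearest values were 0.0433 in a knockdown library and 0.0371 in EGFPKD. Rnaseh2a over Rnaseh2c was 1.26 to 1.67, against 1.69 to 1.88 in EGFPKD, and Rnaseh2a over Rnaseh2b was -0.0671 to 0.229, against 0.234 to 0.418 in EGFPKD. The knockdown mean differed from the EGFPKD mean by -0.12 for Rnaseh2a over Rnaseh2c in Ddx10KD and by -0.33, -0.38 and -0.44 in Ddx24KD, Ddx27KD and Ddx54KD. Rnaseh2b over Rnaseh2c, Thoc1 over Thoc2 and Thoc7 over Thoc5 overlapped between the sides, with mean differences of -0.13, -0.01 and -0.19.

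**Figure D3:**
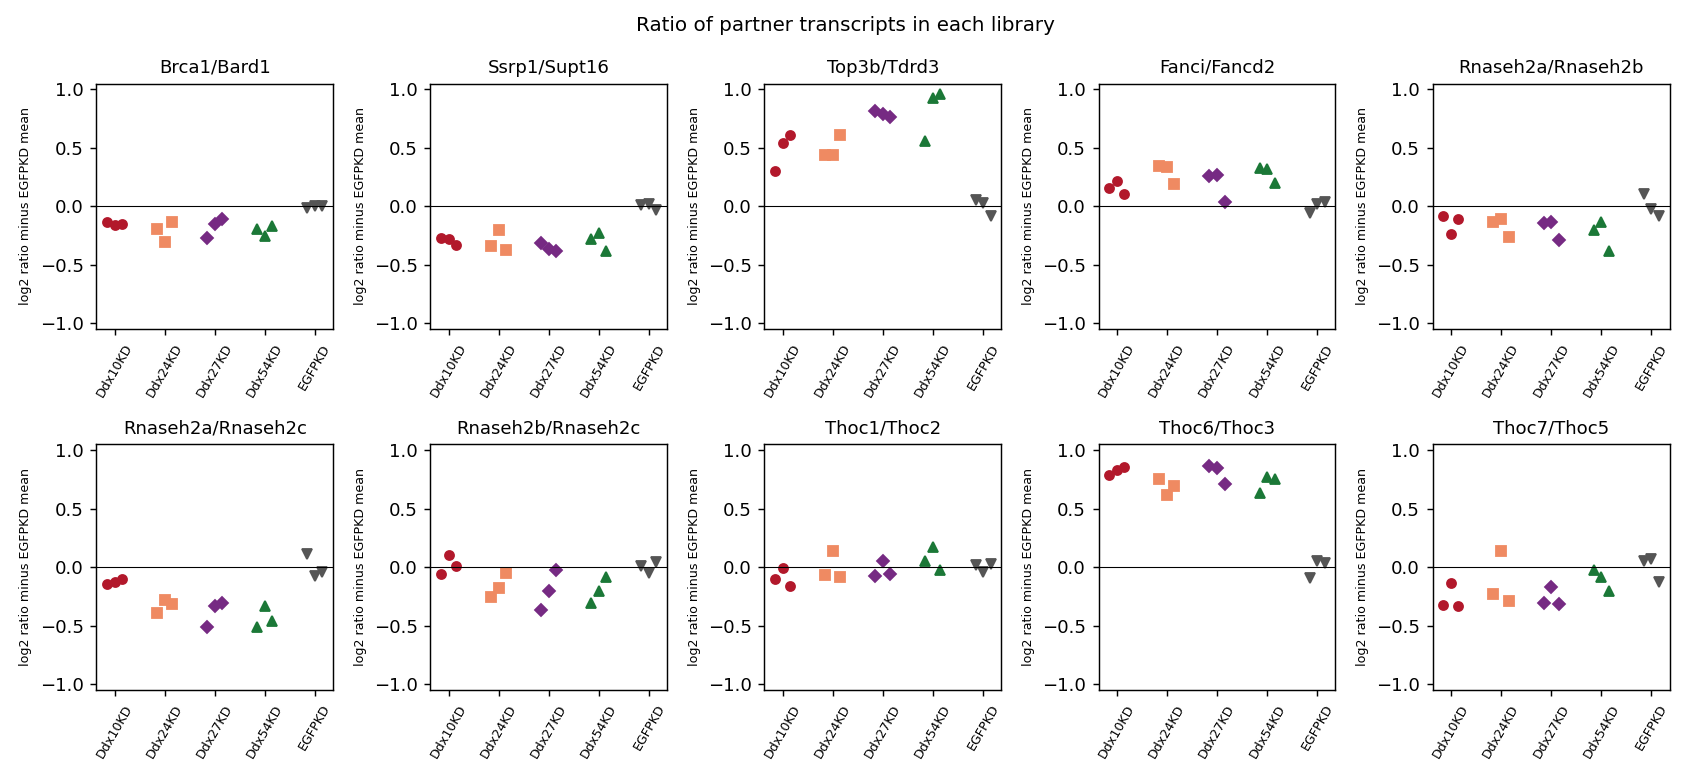
Log2 ratio of partner CPM in each library, minus the EGFPKD mean of that ratio (vertical axes), for 10 pairs, with 3 points per group. Knockdown points of Top3b/Tdrd3 and Thoc6/Thoc3 lie above the line, those of Ssrp1/Supt16 and Brca1/Bard1 below it, and those of Thoc1/Thoc2 on both sides.

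Few differences between knockdowns passed the test in these genes. Over the 6 pairs of knockdowns, a single combination was called: Tdrd3 was higher in Ddx10KD than in Ddx54KD by 0.43 ± 0.09 on the log2 scale (adjusted p 0.0232, and 0.00230 with the block). Its levels were 14.2 ± 0.685 CPM in Ddx10KD and 10.5 ± 0.563 CPM in Ddx54KD (SD, n = 3), and the 3 libraries of each did not overlap. In that pair 1.43% of all tested genes were called. The call was lost without Ddx10KD replicate 1, 2 or 3 or Ddx54KD replicate 2 or 3 (adjusted p 0.0577 to 0.107). Against Ddx27KD, Tdrd3 was higher in Ddx10KD by 0.40, with an adjusted p of 0.0814 and 0.00858 with the block. No member was called by edgeR in the other 5 pairs. There the share of all genes called was 0.412% for Ddx10KD against Ddx24KD, 0.223% for Ddx10KD against Ddx27KD, 0.0209% for Ddx24KD against Ddx27KD, 0.0558% for Ddx24KD against Ddx54KD and 0.014% for Ddx27KD against Ddx54KD. At an unadjusted p under 0.05 these 5 pairs held 6, 4, 2, 1 and 3 members, beside 10.9%, 11.4%, 4.14%, 6.47% and 7.75% of all genes, and the pair of Ddx10KD and Ddx54KD held 5, beside 14.7%. DESeq2 called 3 combinations over the 6 pairs and limma-voom 1.

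With the block 11 combinations of member and pair were called. That fit called 5.41% of all genes for Ddx10KD against Ddx24KD, 5.34% for Ddx10KD against Ddx27KD and 10.6% for Ddx10KD against Ddx54KD. It called 0.0558% for Ddx24KD against Ddx27KD, 1.74% for Ddx24KD against Ddx54KD and 2.62% for Ddx27KD against Ddx54KD. Top1 was higher in Ddx10KD than in Ddx24KD by 0.15 (0.0257), than in Ddx27KD by 0.13 (0.0479) and than in Ddx54KD by 0.23 (0.000876), with blocked adjusted p in parentheses. Top3b was higher in Ddx10KD than in Ddx24KD by 0.21 (0.0371), and Thoc5 higher in Ddx10KD than in Ddx54KD by 0.15 (0.0257). Rnaseh2c was lower in Ddx10KD, with -0.23 (0.0479) against Ddx24KD and -0.33 (0.00313) against Ddx54KD. Ercc5 was higher in Ddx27KD than in Ddx54KD by 0.29 (0.0233), and Aqr by 0.13 (0.0457). Tdrd3 made up the remaining combinations.

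RSEM also gives a mean transcript length per gene and library, weighted by isoform abundance. It was the same in all libraries for 26 members and varied for 13. No member was called for a change in length in any knockdown by limma, where 3900 genes with a varying length were tested and 0.436%, 0.205%, 0.436% and 0.231% were called in Ddx10KD, Ddx24KD, Ddx27KD and Ddx54KD. At an unadjusted p under 0.05 the counts of members were 0, 1, 3 and 1, beside 9.38%, 9.15%, 9.69% and 8.82% of the genes, and the block called 0. Tdrd3 had a mean length of 3288, 3252 and 3291 bases in Ddx10KD libraries, 3164, 3137 and 3093 bases in Ddx24KD, 3311, 3255 and 3342 bases in Ddx27KD and 3201, 3171 and 3258 bases in Ddx54KD, against 3279, 3106 and 3260 bases in EGFPKD libraries. The lengths of each knockdown overlapped those of EGFPKD. Ddx24KD lengths lay below those of every other knockdown, and lengths were not tested between knockdowns.

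**Figure D4:**
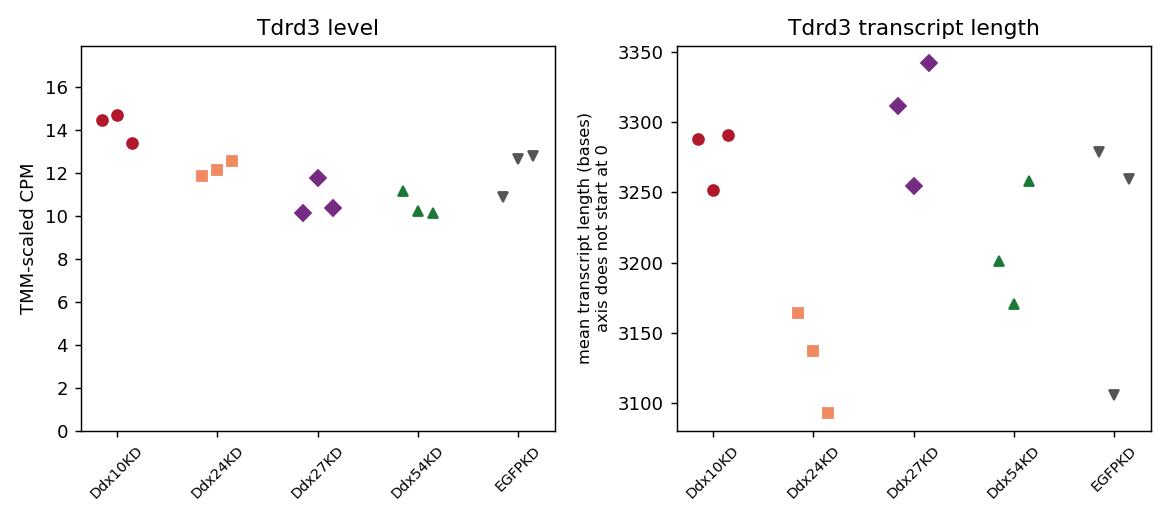
Tdrd3 in each of the 15 libraries: TMM-scaled CPM from 0 (left) and mean transcript length in bases on an axis that does not start at 0 (right). Ddx10KD libraries lie at 13.4 to 14.7 CPM and Ddx54KD libraries at 10.1 to 11.1 CPM, and the lengths run from 3093 to 3342 bases.

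Transcript abundance per length, as the deposited TPM, spanned a wide range in EGFPKD cells. Srsf2 had 659 ± 16.7 TPM, Parp1 436 ± 13.1 TPM and Rpa1 355 ± 22.3 TPM (SD, n = 3). At the low end Wrn had 7.51 ± 0.145 TPM, Tdrd3 7.61 ± 0.715 TPM, Ercc4 7.62 ± 0.189 TPM and Ercc5 12.6 ± 0.995 TPM. The values of Wrn, Tdrd3 and Ercc4 did not differ beyond their spread. In the RNase H2 complex, Rnaseh2a had 69.4 ± 2.53 TPM, Rnaseh2c 69.8 ± 2.62 TPM and Rnaseh2b 79.5 ± 2.48 TPM, and the first and second of these lay within their spread. Brca1 had 75.9 ± 5.97 TPM and Bard1 22.3 ± 1.70 TPM. Top3b, at 70.9 ± 3.49 TPM, stood well above its partner Tdrd3. In knockdown cells Ercc5 reached 29.4 ± 4.17 TPM in Ddx10KD, 27.4 ± 4.70 TPM in Ddx24KD, 32.7 ± 2.56 TPM in Ddx27KD and 26.7 ± 3.52 TPM in Ddx54KD (SD, n = 3). The lowest count of any member in any library was 271, for Tdrd3.

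**Figure D5:**
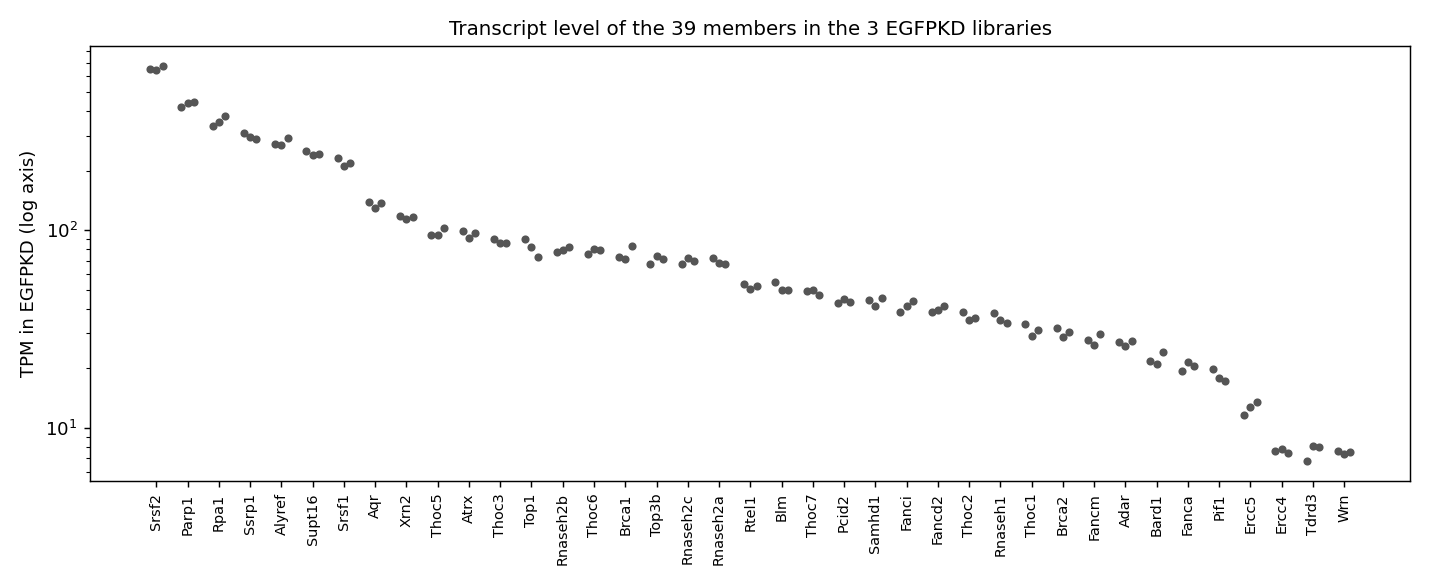
Deposited TPM (log axis) of the 39 genes in the 3 EGFPKD libraries, sorted by mean, with 1 point per library. Levels run from 659 TPM for Srsf2 to 7.51 TPM for Wrn.

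The sources used here do not say whether the libraries keep strand, and several members share exon sequence with a gene on the other strand in GENCODE M21. Thoc6 shares 287 bases with Hcfc1r1, whose log2 changes of -0.09, 0.06, 0.11 and 0.14 were not called in any knockdown. Fanci shares 921 bases with Polg, with 0.04, 0.07, 0.04 and 0.04, none called. Rnaseh2a shares 339 bases with Gm49661 on its own strand, not analysed here, and 177 bases with the abundant Prdx2, which changed by -0.18, -0.20, -0.24 and -0.19 and was called in Ddx27KD (adjusted p 0.0470). Thoc1 shares 2169 bases with Usp14, which was called lower in each knockdown, at -0.31, -0.31, -0.39 and -0.32. Rnaseh2c shares 426 bases with Kat5, called higher in Ddx10KD (0.16) and Ddx27KD (0.17). Top3b shares 108 bases with Vpreb1, which averaged 2.49 TPM beside 103 TPM for Top3b and was called higher in Ddx27KD (0.99). Adar shares 1365 bases with Chrnb2, Supt16 1057 with Rpgrip1 and Fanca 920 with Zfp276. Srsf2 shares 460 bases with Mettl23 and 288 with Mfsd11. Rpgrip1 was called higher in Ddx10KD (0.44), and Mfsd11 lower in Ddx24KD (-0.30) and Ddx27KD (-0.31). Further members, among them Fancd2, Rnaseh2b, Ssrp1 and Thoc7, have overlaps not detailed here. The values of these members are uncertain to the extent that reads of such exons were divided between the genes. Ercc5, Aqr, Brca1 and Tdrd3 share no exon with another annotated gene, and the overlaps of Rpa1 and Brca2 were of 44 and 41 bases with genes not analysed here.

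Other genes of these pathways moved in both directions. Of 30 tested R-loop factors outside the 39, 4 rose and 5 fell in Ddx10KD, 5 and 3 in Ddx24KD, 5 and 5 in Ddx27KD, and 2 and 5 in Ddx54KD, with median log2 changes of -0.03, 0.01, 0.03 and -0.01. That is 30%, 26.7%, 33.3% and 23.3% called, where 31%, 28.1%, 33.4% and 24.3% of all genes were. With the block 5 rose and 10 fell in Ddx10KD, 7 and 6 in Ddx24KD, 8 and 8 in Ddx27KD, and 7 and 8 in Ddx54KD, where it called 44%, 41.2%, 45.8% and 38.9% of all genes. The RNA helicase Ddx17 had log2 changes of 0.17, 0.41, 0.37 and 0.46 and was called in each. Exosc10, the nuclear exosome nuclease, fell with -0.19, -0.25, -0.27 and -0.24. Top2b, topoisomerase 2 beta, had 0.32, 0.33, 0.24 and 0.12, called in the first 3 of these and not in Ddx54KD (0.170). Among 14 other TREX and TREX-2 genes, 2 rose in each knockdown and 4, 2, 3 and 2 fell, with medians of -0.03, -0.02, -0.04 and 0.00 (in Ddx10KD, Ddx24KD, Ddx27KD and Ddx54KD). Mcm3ap, the TREX-2 scaffold, had 1.08, 0.93, 1.19 and 0.98, and Zc3h11a, a TREX-associated zinc finger protein, had 0.23, 0.24, 0.25 and 0.21. Erh, a small conserved RNA-processing protein, fell with -0.23, -0.18, -0.26 and -0.23. Of 37 other Fanconi and recombination genes, 3 rose and 4 fell in Ddx10KD, 1 and 4 in Ddx24KD, 4 and 5 in Ddx27KD, and 3 and 4 in Ddx54KD, with medians of -0.05, -0.02, 0.01 and -0.01. Under the block these counts were 5 and 11, 4 and 7, 7 and 9, and 7 and 9, in the same order. Rmi2, a partner of Blm, had -0.35, -0.51, -0.42 and -0.45, the checkpoint kinase Chek1 -0.29, -0.26, -0.22 and -0.14, and the checkpoint kinase Atr 0.42, 0.27, 0.26 and 0.21, the last not called in Ddx54KD (0.0566).

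Genes of S phase and targets of p53 were measured beside the members, since BRCA, RPA and RNase H2 genes are known to follow the cell cycle. Of 32 S-phase genes, 23, 19, 20 and 20 fell in Ddx10KD, Ddx24KD, Ddx27KD and Ddx54KD and 0 rose, with median log2 changes of -0.21, -0.19, -0.21 and -0.21. The thymidine kinase Tk1 had -0.65, -0.60, -0.61 and -0.57, Uhrf1, a reader of hemimethylated DNA, -0.53, -0.48, -0.52 and -0.48, and the replication clamp Pcna -0.52, -0.42, -0.54 and -0.45. All 16 p53 targets rose in each knockdown, with medians of 1.54, 1.42, 1.61 and 1.27. The kinase Plk2 had 2.54, 2.52, 2.89 and 2.43, the BH3-only gene Pmaip1 1.69, 1.61, 1.66 and 1.24 and Phlda3, an inhibitor of Akt, 1.77, 1.58, 1.86 and 1.62. Markers of other cell types were called in both directions. In Ddx10KD, Ddx24KD, Ddx27KD and Ddx54KD, 31%, 28.1%, 33.4% and 24.3% of all tested genes were called. For the tested primitive endoderm markers the shares were 42.9%, 28.6%, 28.6% and 28.6%. For the trophoblast markers they were 14.3%, 28.6%, 28.6% and 14.3%. With the block, 44%, 41.2%, 45.8% and 38.9% of all genes were called. Of 7 tested primitive endoderm markers 2 fell in each knockdown and 1 rose, in Ddx10KD, with median log2 changes of 0.08, 0.15, 0.42 and 0.06. Their summed levels were 95.7 to 128.6 CPM in knockdown libraries and 141 to 158 CPM in EGFPKD. Most of this sum was Lama1, at 88.4 to 148 CPM over the 15 libraries, and no other marker of the list exceeded 5.53 CPM. The laminin Lama1 had -0.37, -0.49, -0.36 and -0.39, the endoderm factor Sox7 -0.81, -1.03, -0.93 and -0.86, and Gata6, the factor that specifies primitive endoderm, was called in Ddx10KD (1.44). Of 7 tested trophoblast markers 1 rose in each, with sums of 127.6 to 198 CPM in knockdown libraries and 101 to 133 CPM in EGFPKD. The one that rose was Tfap2c, a factor that stem cells also express (0.65, 0.53, 0.57 and 0.66). Tfap2c made up most of that sum, at 78.4 to 175 CPM over the 15 libraries. The median log2 change of the 7 trophoblast markers was 0.12, 0.29, -0.07 and 0.26. The keratin Krt8 was called lower in Ddx24KD (-0.85) and Ddx27KD (-0.64). With the block 1 trophoblast marker rose and 1 fell in Ddx10KD, and 2 and 1 in Ddx54KD. Of 9 pluripotency markers, 0 rose and 2 fell in Ddx10KD, 1 and 2 in Ddx24KD, 1 and 3 in Ddx27KD, and 1 and 2 in Ddx54KD, and with the block 2 and 4, 3 and 3, 3 and 4, and 3 and 3. Zfp42 fell with -0.33, -0.33, -0.40 and -0.30, Nanog had -0.47, -0.32, -0.43 and -0.19, not called in Ddx54KD (0.0730), and Sox2 had 0.12, 0.24, 0.26 and 0.23, not called in Ddx10KD (0.0934). From the 4 tested fibroblast markers, 1 rose and 1 fell in each knockdown: Thy1 had -0.73, -0.73, -0.76 and -0.48 and Fbn1 had 0.51, 0.46, 0.58 and 0.48. The part of these markers in the results was not tested.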

How the data were processed

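Poly(A) RNA was measured in 15 libraries of E14 mouse embryonic stem cells, 3 replicates in each of 5 groups taken from the submitters' treatment labels. Per the file headers and the submitters' processing notes, the authors estimated expression with RSEM on mm10 and deposited 1 gene table per library. For the RSEM version, aligner, annotation release and strand setting, nothing is given in the sources used here, although the deposited tables carry RefSeq transcript identifiers. Those tables hold expected counts, which the authors did not scale for depth, per the file headers. They also hold TPM, which the authors scaled per transcript length and library, per the file headers, and FPKM, which the authors deposited and which was not used. The deposited mean transcript length weights isoforms by abundance. The authors' deposited EBSeq tables give a fold change, as a ratio of knockdown to EGFPKD, and a posterior probability between 0 and 1, treated as a score, per the file headers.

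Expected counts were rounded, and 14335 of 23845 genes passed filterByExpr of edgeR 4.0.16 in R 4.3.3, with 99.97% of counts. A quasi-likelihood model with TMM factors was fitted to all 15 libraries, with Benjamini-Hochberg adjustment over all tested genes and a threshold of 0.05. Lengths were tested on the log2 scale with limma 3.58.1. The unblocked edgeR test and the length test were checked on simulated data with independent libraries. That check held no effect of replicate number, so it does not cover the pairing or the blocked fit. The replicate number was taken to pair libraries, because all 30 correlations between same-numbered libraries of different groups exceeded 0.1 (0.106 to 0.335), and it entered an alternative fit as a block. RLE factors, other filters, limma-voom, DESeq2 1.42.0, the 6 compared libraries alone, each library left out and the deposited EBSeq tables were further alternatives. Between replicates the mean chi-squared per gene was 5.67 to 20.0, so no library was counted as a duplicate. The labels do not say what separated the biological replicates, so p-values measure the spread between these samples.

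The 39 members, the lists of other R-loop, TREX, Fanconi and recombination, S-phase, p53, pluripotency, fibroblast, primitive endoderm and trophoblast genes, and the motifs were chosen with earlier results of these data known. All members are named. Values in every library are given for the 10 with the smallest p over the 5 groups, and up to 3 called genes are named from each other list. Promoter sequences are from RefSeq on GRCm38 and gene positions from GENCODE M21 on mm10. For Thoc6 and Rpa1, the bases just after the RefSeq start were not found near the start of a GENCODE transcript of the gene. The Rnaseh2a window lies inside the span of its GENCODE gene.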

Additional observations from a re-analysis of the deposited data

Results flagged for a closer look

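Tdrd3 was the only member for which the unblocked edgeR test called a difference between 2 knockdowns, while the blocked fit also called Top1, Top3b, Thoc5, Rnaseh2c, Ercc5 and Aqr in some pairs. Tdrd3 was higher in Ddx10KD than in Ddx54KD by 0.43 on the log2 scale, with 3 of 3 Ddx10KD libraries above all 3 Ddx54KD libraries. Leaving out any Ddx10KD library, or Ddx54KD replicate 2 or 3, put its adjusted p in edgeR's quasi-likelihood test between 0.0577 and 0.107.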

How the results depend on the processing

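No called change turned its direction under any alternative run. Among values not called, Thoc1, Blm, Atrx, Fancm and Samhd1 in Ddx24KD and Thoc1 in Ddx10KD had the other sign in the authors' deposited tables, as had Pcid2 in Ddx10KD and Atrx in Ddx24KD with the block. The remaining alternatives were read for the sign of called changes only. With replicate number as a block, which respects the pairing, 21 members were called in Ddx24KD and 21 in Ddx54KD (13 in each without it), and 11 combinations between knockdowns (1 without it). It called 23 in Ddx10KD, 21 in Ddx27KD and 26 over the 5 groups, and it ended no call in these comparisons. The blocked fit also called a larger share of all genes. The authors' deposited Ddx24KD table held 6 members. Its ratios lay within 0.1 log2 of the fitted ones for 86.5% of 12447 genes, against 100% in each of the other 3 tables, and the cause was not tested. Between knockdowns, 2 combinations were called with the stricter CPM filter and 3 with DESeq2. Leaving out single libraries gave 11 to 17 members in Ddx10KD, 9 to 14 in Ddx24KD, 11 to 16 in Ddx27KD, 8 to 17 in Ddx54KD, 8 to 19 over the 5 groups, 0 to 2 combinations between knockdowns and 0 changed lengths. Of 58 called combinations of member and comparison, 36 kept their call without any single library and 22 lost it at least once. Fits without a library ignore the pairing, and the share of all genes called in them was not counted. Nor was that share counted with other scaling or filters, DESeq2 or limma-voom.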
